A study of Homo sapiens with 38 samples.

Results

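The HOX genes are 38 protein-coding genes in 4 clusters: 10 in cluster A on chromosome 7, 10 in cluster B on chromosome 17, 9 in cluster C on chromosome 12 and 9 in cluster D on chromosome 2. They were chosen by name and cluster, with no threshold on a measured value, from 20163 protein-coding genes of the annotation (GENCODE v44 lifted to hg19). Their chromatin was read in K562, an established leukemia cell line with erythroid features, from the peak lists of 38 CUT&Tag libraries. CUT&Tag tethers a transposase to an antibody, so that the DNA around a histone mark is cut, tagged and sequenced. H3K27me3 was profiled in 7 libraries, all with the antibody CST-9733 at 1:100, and H3K27ac in 31 libraries with 4 antibodies.

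The benchmark set held 2 H3K27me3 libraries and 6 H3K27ac libraries, namely 2 each with ab177178 (1:100), ab4729 (1:100) and Diagenode C15410196 (1:50), all after 15 PCR cycles and SDS extraction. The 4 TSA libraries had trichostatin A, an inhibitor of histone deacetylases, in the CUT&Tag solutions, and used ab177178, ab4729 and Diagenode C15410196 at 1:100 and the last also at 1:50, with 15 cycles and SDS. A first set without TSA held the same 4 H3K27ac preparations, an Active Motif 39133 library and 1 H3K27me3 library. A PCR set of 16 H3K27ac and 4 H3K27me3 libraries crossed 13 or 11 cycles with column or SDS extraction for 5 antibodies, with 1 library in each combination. MACS2 lists were used for 18 libraries (3 H3K27me3 and 15 H3K27ac) and SEACR lists for all 38. The study calls the replicates of the benchmark antibodies biological, but the labels do not name separate cultures, so each p-value measures the spread between these libraries.

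HOX proteins are homeodomain transcription factors that give cells their position along the body axis. Within a cluster the genes stand in the order of their paralog numbers, and low-numbered genes are used nearer the head and earlier in development than high-numbered ones. Polycomb repressive complexes keep unused HOX genes silent under broad domains of H3K27me3, whereas acetylation of the same lysine, H3K27ac, marks active promoters and enhancers. In blood cells HOX genes, above all of clusters A and B, act in stem and progenitor cells, and several are misused in leukemia.

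List length differed between the libraries. The lists hold no number of fragments, and the totals that the study tabulates were not used here, so no interval for counting error is given. The benchmark H3K27me3 lists held 65638 to 77412 MACS2 peaks and 83643 to 85248 SEACR peaks, and the benchmark H3K27ac lists 21317 to 34897 MACS2 peaks and 10930 to 15614 SEACR peaks. MACS2 called H3K27me3 as broad and H3K27ac as narrow peaks, and SEACR kept a larger top share for H3K27me3, so the mark and its calling settings cannot be told apart. The cell label was checked on 9 erythroid and K562 markers, among them GATA1, TAL1, KLF1 and HBG1. All 9 had a start under H3K27ac in at least 2 of the 6 benchmark libraries by both callers and none under H3K27me3. Of the markers of other cell types 1 of 4 for T cells, 1 of 4 for B cells, 0 of 3 for liver and 1 of 3 for neurons were under H3K27ac by both callers. CD3E and CD2 of T cells and ALB and APOA1 of liver were at 0 of 6 H3K27ac lists by both callers, while CD3D of T cells and GRIN1 of neurons were under H3K27ac in 5 of 6 MACS2 lists each.

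The microRNA genes inside the clusters show the states described below in short form, since genes for the same mature sequence lay in chromatin of different marks. Mature sequences are from RefSeq (GRCh38.p14), in RNA letters with the seed (bases 2 to 8) in capitals, and each was placed on hg19 by an exact match. A sequence was counted under a mark when a peak touched it or the 1.5 kb on either side of it.
miR-196b-5p: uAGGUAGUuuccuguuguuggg
miR-196a-5p: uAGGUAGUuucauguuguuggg
miR-10a-5p: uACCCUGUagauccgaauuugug
miR-10b-3p: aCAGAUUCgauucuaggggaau
miR-615-3p: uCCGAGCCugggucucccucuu
The first pair share the seed AGGUAGU, and all miR-196 genes lie beside paralog 9 or 10 genes. MIR196B in cluster A (chr7:27209147-27209168, minus strand) was under H3K27me3 in 2 of 2 benchmark libraries and under H3K27ac in 0 of 6, by both callers. Mature miR-196a-5p is encoded by a pair of genes. The cluster C copy, MIR196A2 (chr12:54385546-54385567, plus strand), was under H3K27me3 by this rule in 2 of 2 libraries and H3K27ac in 0 of 6. The stretch under H3K27me3 in both libraries ended before these bases, at 54385385 by MACS2 and 54385496 by SEACR. The cluster B copy, MIR196A1 (chr17:46709894-46709915, minus strand), was under H3K27me3 in 0 of 2 libraries and H3K27ac in 6 of 6. The stretches under H3K27ac in at least 4 of 6 libraries lay beside its bases by MACS2 and over them by SEACR. MIR10B in cluster D (chr2:177015096-177015117, plus strand) had H3K27me3 in 2 of 2 and H3K27ac in 0 of 6, MIR10A in cluster B (chr17:46657266-46657288, minus strand) had H3K27me3 in 0 of 2 and H3K27ac in 6 of 6, and MIR615 in cluster C (chr12:54427794-54427815, plus strand) had neither mark by either caller.

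Promoters of members in each state are shown as the 250 bases before a RefSeq start, with every CG in capitals, because Polycomb domains in mammals are known to sit over CpG-rich DNA. HOXA13, which acts in the distal limb and the genital tract, and HOXD4 were under H3K27me3 alone, the HOXC4 start shown was under H3K27ac, and HOXB1, a hindbrain gene, had neither mark.
HOXA13, chr7:27239711-27239960, minus strand: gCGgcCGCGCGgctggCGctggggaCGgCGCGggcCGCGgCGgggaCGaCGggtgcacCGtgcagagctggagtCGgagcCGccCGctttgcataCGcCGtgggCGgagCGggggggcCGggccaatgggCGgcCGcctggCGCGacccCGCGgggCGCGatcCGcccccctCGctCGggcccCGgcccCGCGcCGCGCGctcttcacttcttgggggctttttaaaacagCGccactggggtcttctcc
HOXD4, chr2:177016028-177016277, plus strand: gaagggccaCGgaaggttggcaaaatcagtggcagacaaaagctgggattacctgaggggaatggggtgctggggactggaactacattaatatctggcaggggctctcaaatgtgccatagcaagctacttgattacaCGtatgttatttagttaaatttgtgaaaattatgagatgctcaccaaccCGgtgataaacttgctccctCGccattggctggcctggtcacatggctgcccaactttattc
HOXC4, chr12:54410422-54410671, plus strand: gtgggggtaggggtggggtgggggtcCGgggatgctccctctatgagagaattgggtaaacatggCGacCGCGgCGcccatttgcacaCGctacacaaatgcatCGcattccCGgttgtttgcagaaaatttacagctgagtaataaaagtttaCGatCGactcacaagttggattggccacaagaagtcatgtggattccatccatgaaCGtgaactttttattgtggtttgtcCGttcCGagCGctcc
HOXB1, chr17:46608374-46608623, minus strand: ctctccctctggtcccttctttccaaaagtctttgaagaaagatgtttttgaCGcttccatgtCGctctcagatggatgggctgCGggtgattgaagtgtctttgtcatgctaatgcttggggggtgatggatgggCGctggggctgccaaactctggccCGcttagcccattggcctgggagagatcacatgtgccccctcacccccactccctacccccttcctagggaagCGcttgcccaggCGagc
The HOXA13 window held 40 CG, the HOXD4 window 4, the HOXC4 window 14 and the HOXB1 window 7. RefSeq gave windows for 20 members, 27 windows in all, and each matched hg19 at 1 place. HOXC4 and HOXC5 have the same window, HOXA3 has more windows than any other member, and HOXB1 is the only cluster B member with one. The 24 windows with H3K27me3 in 2 of 2 SEACR lists and no H3K27ac all lay in clusters A and D. They held 0 to 40 CG with a median of 20.5, against a median of 11 over all 35114 promoter windows. The range was wide, and the HOXD4 window, under H3K27me3, held fewer CG than the HOXB1 window without it. The motif TGATNNAT, read on both strands and known as a joint site of HOX and PBX proteins, was in 3 of the 27 HOX windows (11.1%, at HOXD11, HOXA2 and HOXB1) and in 6.47% of all windows. The motif TATAAA was in 5 (18.5%, against 10.7% of all windows). The motif AGATAA, bound by GATA1, was in 2 (7.41%, against 9.17% of all windows). The 3 motifs share letters and were searched apart, no HOX window held more than 1 of them, and a match describes the letters only.

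Most HOX genes were under H3K27me3 and few under H3K27ac. A gene was counted for a mark when a peak touched the 1.5 kb on either side of any of its transcript starts, in both benchmark H3K27me3 libraries or in at least 2 of the 6 benchmark H3K27ac libraries. By this rule 25 of 38 members (65.8%) had H3K27me3 by either caller, where 26.3% of all protein-coding genes did by MACS2 and 25.9% by SEACR. H3K27ac was at 9 members (23.7%) by MACS2, where 56.3% of all genes had it, and at 10 (26.3%) by SEACR, where 50.9% had it. Both marks were at HOXC4 and HOXC6 (5.26%), against 5.21% of all genes by MACS2 and 3.74% by SEACR. Neither mark was at 6 members by MACS2 (15.8%, against 22.7% of all genes) and at 5 by SEACR (13.2%, against 27% of all genes). Members share starts and windows, so they are not independent of each other.

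**Figure D1:**
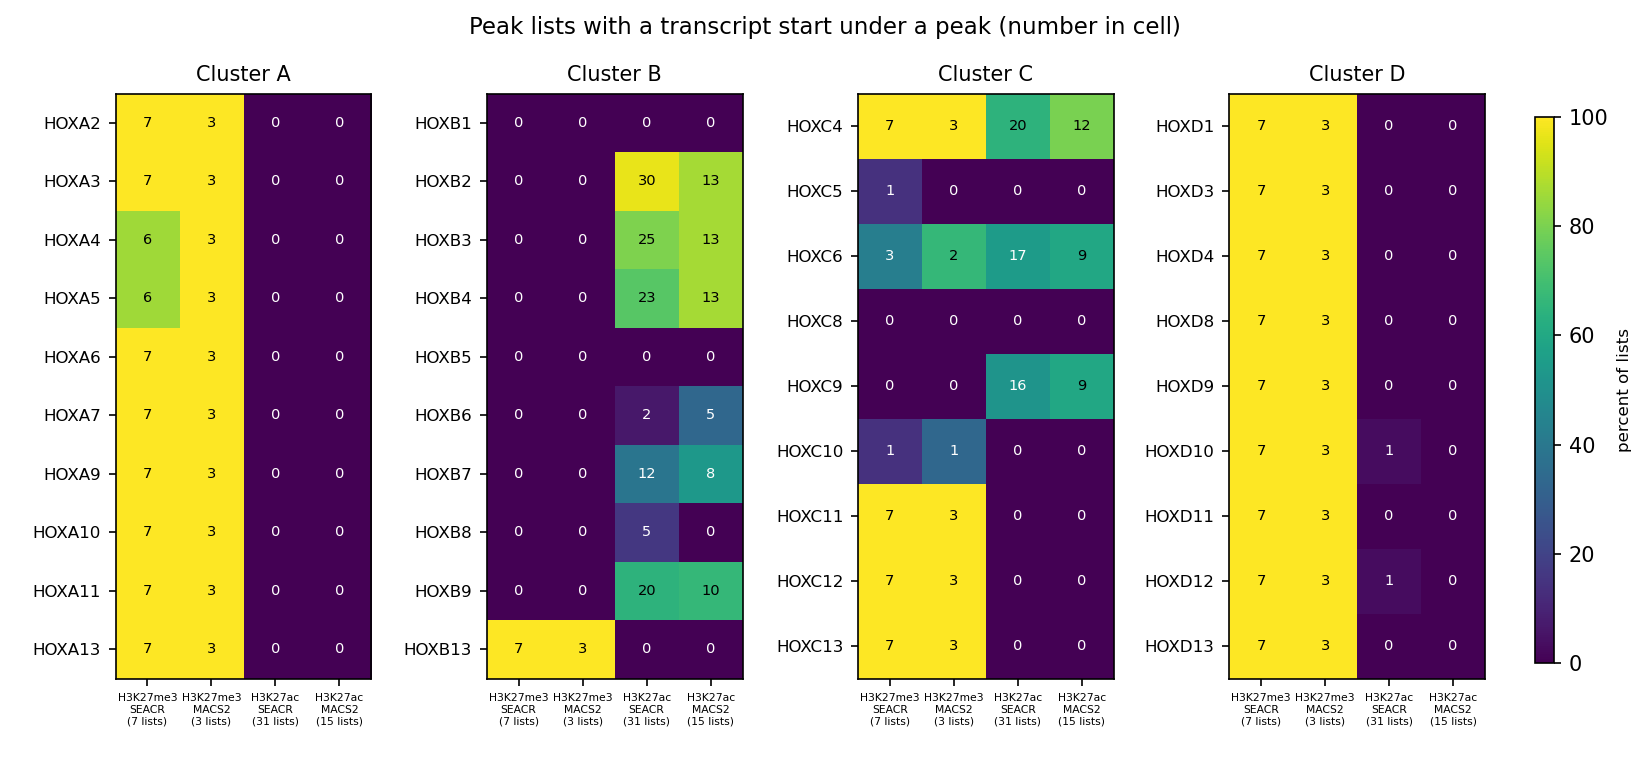
Number of peak lists in which each HOX gene had a transcript start under a peak, for H3K27me3 (7 SEACR and 3 MACS2 lists) and H3K27ac (31 SEACR and 15 MACS2 lists), with 1 panel per cluster, 1 row per gene and color giving the percent of lists. Clusters A and D were filled for H3K27me3 and near 0 for H3K27ac, cluster B had H3K27me3 at HOXB13 alone and H3K27ac mainly at HOXB2, HOXB3, HOXB4, HOXB7 and HOXB9, and cluster C was mixed.

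Counted per library, the H3K27me3 lists held 25 and 25 members, by MACS2 and again by SEACR. The H3K27ac lists held 8 to 9 members with a median of 9 by MACS2, and 8 to 10 with a median of 9 by SEACR. The groups did not overlap. The mean difference, H3K27me3 minus H3K27ac, was 16.3 members by MACS2 and 16 by SEACR (two-sided exact permutation test, p = 0.0357 for each, the smallest that the 28 arrangements of 8 libraries allow). The other H3K27me3 lists came close, with 25 (MACS2) and 24 (SEACR) in the first set and 23 to 25 in the 4 PCR libraries.

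Cluster A was covered by H3K27me3 over nearly its whole span of 99.738 kb (chr7:27139973-27239710). MACS2 peaks covered 93.6% and 87.0% of it in the H3K27me3 libraries and 0% in each of the 6 H3K27ac libraries, and SEACR peaks 90.2% and 89.2% for H3K27me3 and again 0% in each H3K27ac library. All 10 members had a start under H3K27me3 by both callers: the anterior genes HOXA2 and HOXA3, the central genes HOXA4, HOXA5, HOXA6 and HOXA7, and the posterior genes HOXA9, HOXA10, HOXA11 and HOXA13. HOXA9 and HOXA10 are known for their part in acute leukemia, and neither was under H3K27ac in any of the 15 MACS2 or 31 SEACR lists, nor was any other cluster A member. HOXA4 was missing from the SEACR list of the first H3K27me3 library and HOXA5 from that of 1 PCR library with 13 cycles, and the other 8 members were in all 7.

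Within cluster A the gene body of HOXA13 was the least covered. H3K27me3 lay over 47.1% and 33.3% of it by MACS2 and 49.5% and 41.2% by SEACR, whereas the other 9 bodies averaged 89.5% to 100% over both callers. The outermost start of HOXA13, downstream of the promoter window shown above, was under H3K27me3 in both libraries by both callers, and the inner start in none by MACS2 and in both by SEACR. The longest stretch under H3K27me3 in both SEACR lists ran 15077 bp over HOXA10, HOXA11 and HOXA13 (chr7:27218797-27233873).

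Cluster D was as evenly covered. Its span of 98.187 kb (chr2:176957449-177055635) was under H3K27me3 for 94.4% and 97.0% by MACS2 and for 88.5% and 94.7% by SEACR, and under H3K27ac for 0% in each benchmark library. All 9 members had a start under H3K27me3 in all 3 MACS2 and all 7 SEACR lists: HOXD13, HOXD12, HOXD11, HOXD10 and HOXD9, which pattern the limb and the posterior trunk, HOXD8, and the anterior genes HOXD4, HOXD3 and HOXD1. Mean body coverage of these genes by H3K27me3 ranged from 85.8% to 100%. The widest MACS2 peaks of the 4 clusters were here, at 47.7 and 59.0 kb, where the list medians were 1.13 and 1.21 kb. The highest MACS2 fold was at HOXD3 and HOXD4, 13.9 and 13.6, and the next were 9.27 and 12 in cluster A, 8.39 and 9.53 at HOXC11 and HOXC12, and 6.89 and 8.14 at HOXB13.

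The 2 exceptions in cluster D were single H3K27ac lists outside the benchmark. HOXD10 had a start under a SEACR H3K27ac peak in 1 of 31 lists (Active Motif, 11 cycles, column), a peak of 994 bp at percentile 22.5 of its list by total signal. HOXD12 had one in 1 of 31 (ab4729 with TSA), with peaks of 938 and 898 bp at percentiles 40.3 and 24.8. Both genes were under H3K27ac in 0 of 15 MACS2 lists.

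**Figure D2:**
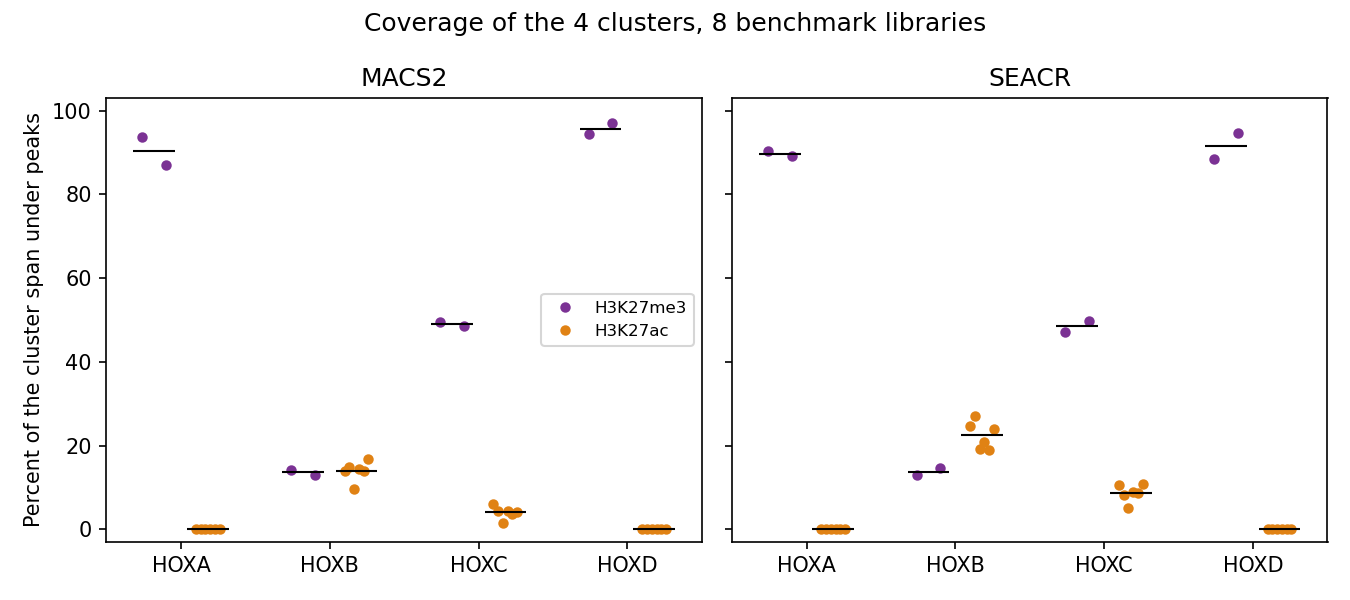
Percent of each cluster's span under peaks in the 2 H3K27me3 and 6 H3K27ac benchmark libraries, by MACS2 (left) and SEACR (right), with 1 point per library and lines at the means. H3K27me3 lay above H3K27ac without overlap in clusters A, C and D by both callers, and in cluster B the marks overlapped by MACS2 and H3K27ac was above H3K27me3 by SEACR.

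Cluster B was marked the other way. Its span is longer, 200.225 kb (chr17:46605888-46806112), because HOXB13 lies far from HOXB9. H3K27me3 covered 14.2% and 13.0% of the span by MACS2 and 13.0% and 14.6% by SEACR, all of it toward HOXB13. H3K27ac covered 9.61% to 16.9% with a median of 14.1% by MACS2, and 18.9% to 27.1% with a median of 22.5% by SEACR. The groups overlapped by MACS2 and not by SEACR. Of 10 members, only HOXB13, a gene of the prostate and tail bud, had H3K27me3 (3 of 3 MACS2 and 7 of 7 SEACR lists, over 100% of its body), and it was in no H3K27ac list.

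H3K27ac in cluster B was strongest at HOXB2, which acts in the hindbrain. Its 3 starts were all under H3K27ac in 6 of 6 benchmark libraries by both callers, and over all sets the gene was in 13 of 15 MACS2 and 30 of 31 SEACR lists, level with HOXB3 and HOXB4 by MACS2 and more than any other member by SEACR. The MACS2 fold at its peak was 32.7 to 85.8 with a median of 48.3, and the SEACR maximum signal 44 to 140 with a median of 80. Ranked within each MACS2 list, this peak stood at percentiles 95.3 to 98.4. It was the highest-ranked peak of the cluster in 6 of 6 MACS2 lists and in 5 of 6 SEACR lists, and in ab177178 replicate 1 the SEACR peak shared by HOXB7 and HOXB9 ranked higher. Mean body coverage of HOXB2 by H3K27ac was 92.5% by MACS2 and 99.6% by SEACR.

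HOXB4, known for expanding blood stem cells, and HOXB3 shared 1 peak. It was found in 6 of 6 benchmark libraries by both callers, with a MACS2 fold of 18.9, 25.4, 28.7, 30.0, 30.3 and 42.6 (percentiles 83.9 to 89.7). HOXB4 has a single start and lay under H3K27ac for 96.2% of its body by MACS2 and 100% by SEACR. HOXB3 has 12 starts, and they differed: the start at 46656719 was under H3K27ac in 6 of 6 lists by both callers, those from 46667597 to 46667603 in none, and the outermost at 46682274 in 3 by MACS2 and 2 by SEACR. HOXB9 and HOXB7 were also in 6 of 6 benchmark lists by both callers. They shared 1 SEACR peak in each library, whereas the MACS2 fold was 18.2 to 51.1 (median 30.4) at HOXB9 and 6.54 to 51.1 (median 13.9) at HOXB7. Over all 31 SEACR lists HOXB3 was in 25, HOXB4 in 23, HOXB9 in 20 and HOXB7 in 12.

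The remaining cluster B members were weak or unmarked. HOXB6, a fetal blood gene, was in 4 of 6 MACS2 and 2 of 6 SEACR benchmark lists, at a fold of 6.08 to 11.3, and only through its starts from 46681494 to 46682354, while the start at 46674496 was in none. HOXB8 was in 0 of 6 MACS2 and 4 of 6 SEACR lists, with a maximum signal of 18 to 34, through its start at 46690841 alone. HOXB8 was the 1 member counted for H3K27ac, in at least 2 of 6 libraries, by SEACR and not by MACS2. HOXB1 and HOXB5 were in no list of either mark. From HOXB1 the nearest H3K27me3 peak lay 147 kb away and the nearest H3K27ac peak 8.50 kb by MACS2 and 9.72 kb by SEACR (medians over libraries), and from HOXB5 83.9 and 83.8 kb for H3K27me3 and 8.19 and 7.99 kb for H3K27ac.

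**Figure D3:**
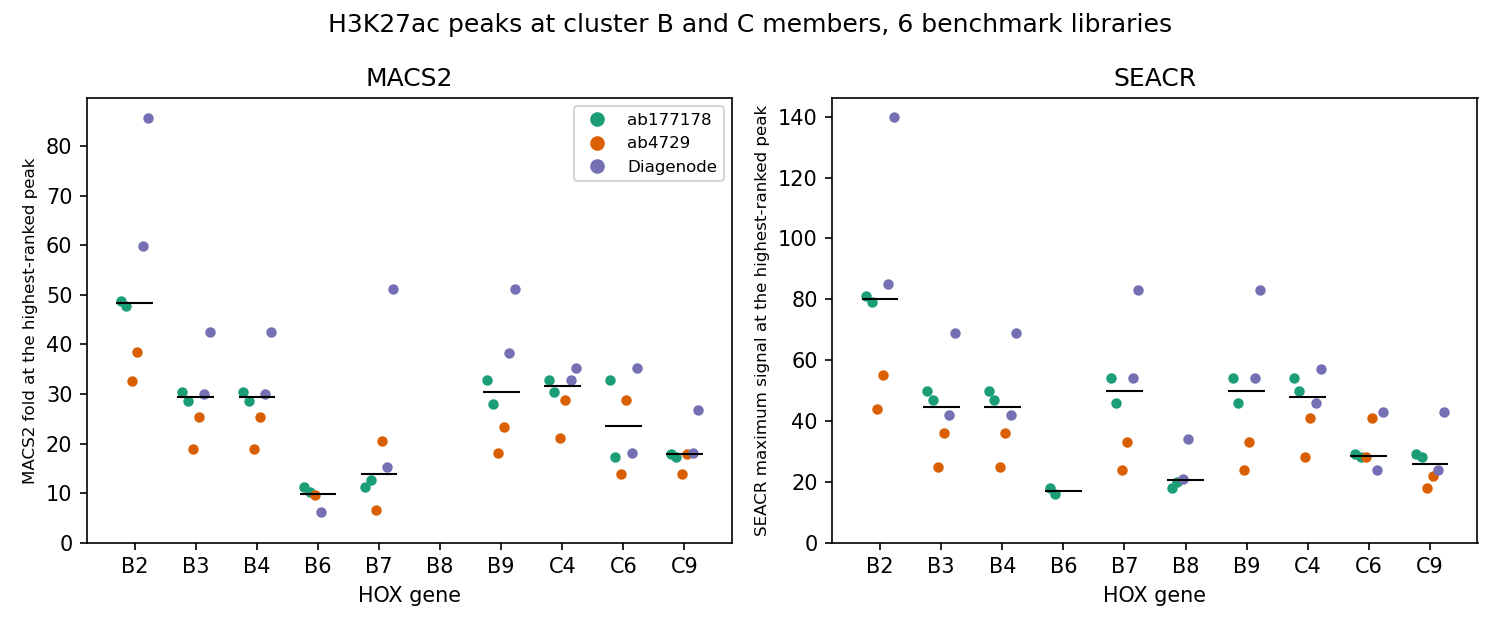
Strength of the highest-ranked H3K27ac peak at the starts of cluster B and C members in the 6 benchmark libraries, as MACS2 fold (left) and SEACR maximum signal (right), with 1 point per library colored by antibody and lines at the medians over libraries with a peak. HOXB2 had the highest median on both scales (48.3 and 80), HOXB3 and HOXB4 share a peak by both callers, and HOXB7 and HOXB9 by SEACR.

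Cluster C held both marks in separate blocks. H3K27me3 covered 49.6% and 48.6% of its 117.2 kb (chr12:54332615-54449814) by MACS2 and 47.2% and 49.7% by SEACR, and H3K27ac 1.54% to 6.16% (median 4.23%) by MACS2 and 4.98% to 10.9% (median 8.78%) by SEACR. At the posterior end HOXC13, a gene of hair and nail, HOXC12 and HOXC11 were under H3K27me3 in all 3 MACS2 and 7 SEACR lists and in no H3K27ac list, with 100% of the bodies of HOXC11 and HOXC12 covered. The stretch over HOXC11 and HOXC12 in both SEACR lists was 30381 bp (chr12:54342617-54372997), the longest of the 4 clusters by that caller. HOXC9, on the other side of HOXC10, was the reverse, in 6 of 6 H3K27ac benchmark lists by both callers and no H3K27me3 list, at a MACS2 fold of 13.8 to 26.8 (percentiles 66.4 to 76.5).

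HOXC4 and HOXC6 were the members counted for both marks, and the marks sat at different starts. At HOXC4 the outermost start (54410715) was under H3K27ac in 6 of 6 libraries by both callers and under H3K27me3 in 1 of 2 by MACS2 and 0 of 2 by SEACR. The inner starts of HOXC4 (54431638 and 54447619) were under H3K27me3 in 2 of 2 and under H3K27ac in 0 of 6 by both callers. The MACS2 fold of the H3K27ac peak at HOXC4 was 21.1, 28.9, 30.5, 32.7, 32.8 and 35.3. At HOXC6 the order was turned round. Its outermost start (54384408) was under H3K27me3 in 2 of 2 benchmark libraries and H3K27ac in 0 of 6, by both callers. Over all sets this start was under H3K27me3 in only 2 of 3 MACS2 and 3 of 7 SEACR lists. Mean coverage of the HOXC6 body by H3K27me3 was 1.95% by MACS2 and 2.14% by SEACR. The next HOXC6 start (54388728) was under H3K27me3 in 0 of 2 and H3K27ac in 6 of 6, by both callers. That second HOXC6 start lies within HOXC9, so the H3K27ac counted for HOXC6 at that start is the peak at HOXC9. The HOXC6 start at 54409681, beside HOXC4, was under H3K27ac in 3 of 6 libraries by MACS2 and 6 of 6 by SEACR. It was under H3K27me3 in 0 of 2 by both callers. The innermost HOXC6 start (54422224) had neither mark.

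Between the blocks HOXC5, HOXC8 and HOXC10 had neither mark in the benchmark lists. HOXC8 was in no list of any set. HOXC5 was in 1 of 7 SEACR H3K27me3 lists, from the PCR set, and HOXC10 in the MACS2 and SEACR H3K27me3 lists of the first library. Median distances to the nearest H3K27me3 peak were 13.1 kb (MACS2) and 17.2 kb (SEACR) for HOXC8 but 2.43 and 2.11 kb for HOXC10. The count for HOXC5 depends on the annotation, because RefSeq starts it where HOXC4 starts (54410672), under H3K27ac in 6 of 6 libraries, whereas GENCODE gives 54426834.

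**Figure D4:**
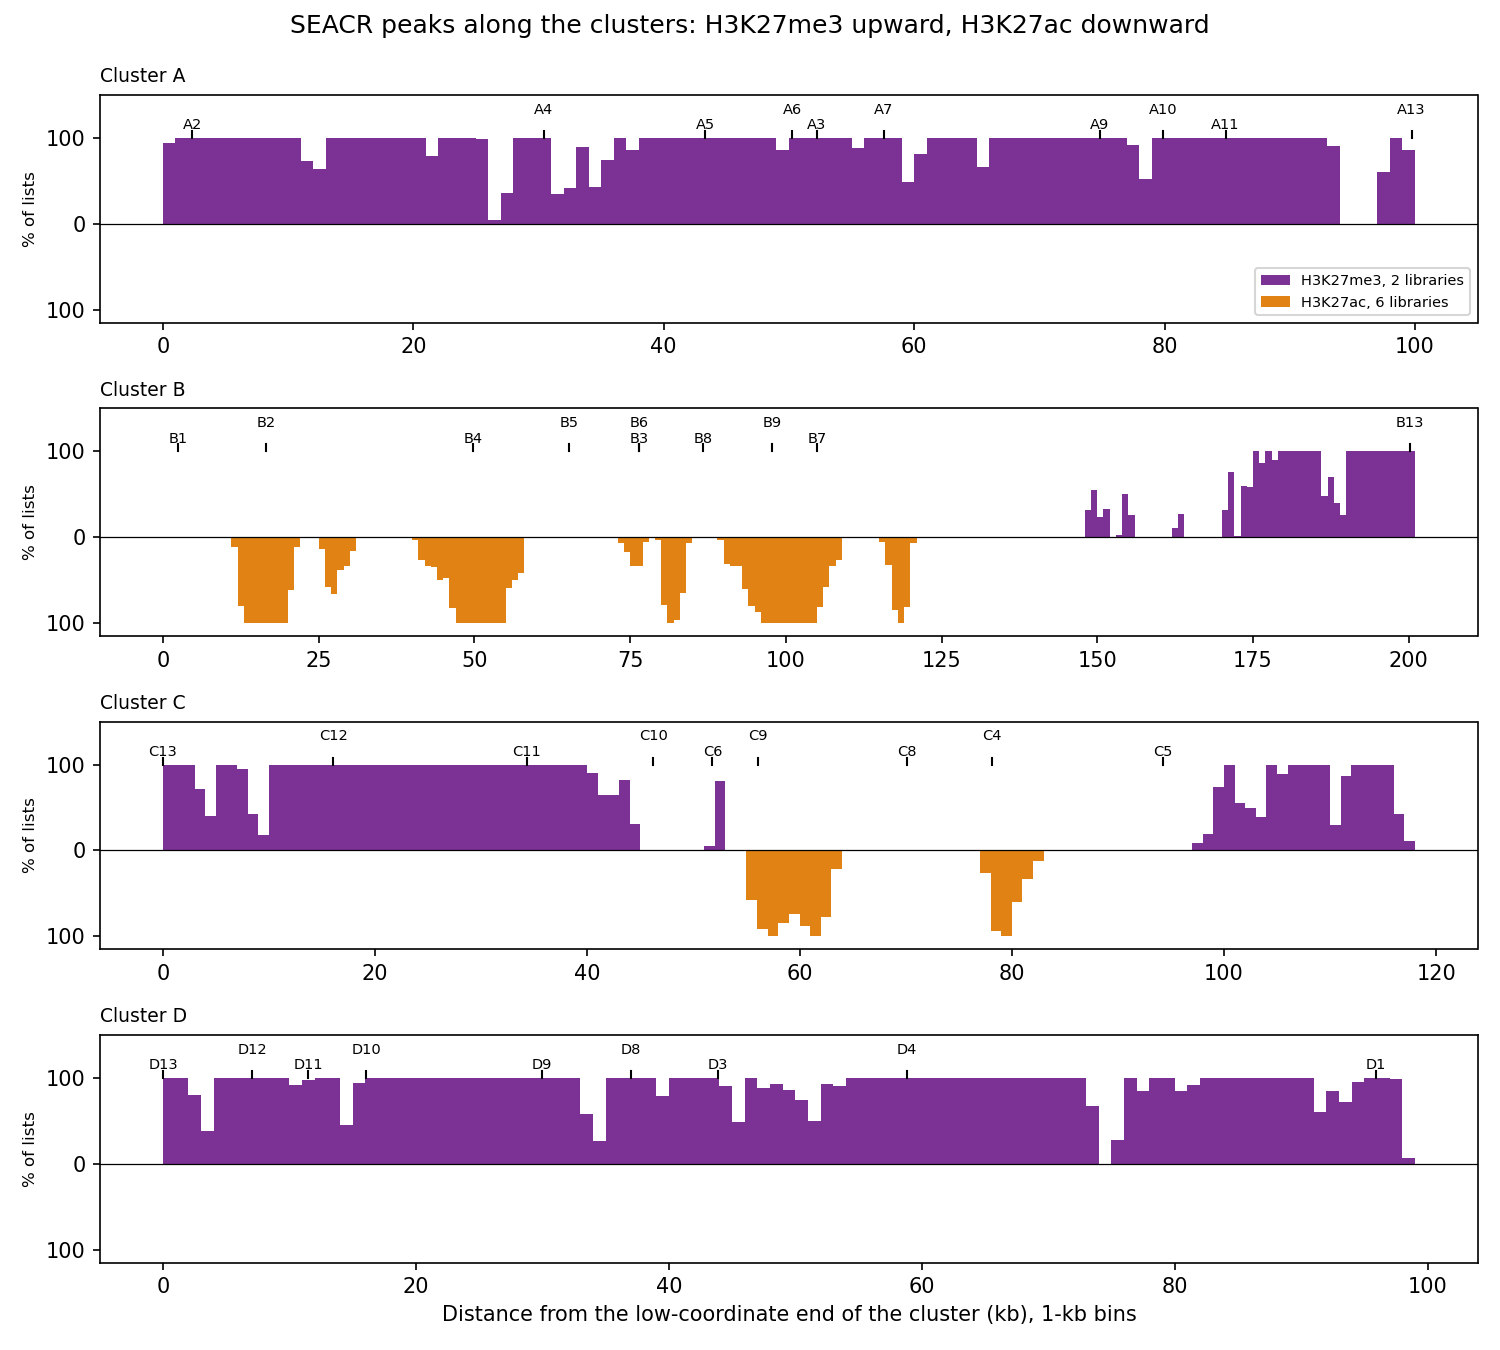
Share of SEACR benchmark lists with a peak in each 1-kb bin along the clusters, H3K27me3 (2 libraries) upward and H3K27ac (6 libraries) downward, against distance from the low-coordinate end, with ticks at the outermost start of each gene. Clusters A and D show H3K27me3 throughout, cluster B shows H3K27ac in blocks and H3K27me3 only near HOXB13, and cluster C shows 2 H3K27ac blocks between H3K27me3 blocks.

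The marks shared few or no bases. Counting bases under each mark in at least 1 benchmark library, no base of clusters A, B or D carried both, by either caller, and in cluster C 288 bp (0.246% of the span) did by MACS2 and 0 by SEACR. Those 288 bp were under H3K27me3 in replicate 1 alone and under H3K27ac in all 6 libraries. As a share of the H3K27ac bases in cluster C they came to 3.99% to 15.9% in the 6 pairs with that replicate and 0% in the other 6 pairs. Over the whole genome 1.55% to 4.44% of H3K27ac bases lay under H3K27me3 by MACS2 in the same 12 pairs, and 1.41% to 3.08% by SEACR. In cluster B the nearest H3K27me3 and H3K27ac peaks stood 29.1 to 46.3 kb apart by MACS2 and 28 to 30.0 kb by SEACR. In cluster C they stood 0 to 4.09 kb apart (median 1.40 kb) by MACS2 and 2.33 to 3.61 kb (median 2.41 kb) by SEACR. Bases with neither mark in any benchmark library made up 66.1% (MACS2) and 52.5% (SEACR) of cluster B and 41.9% and 35.9% of cluster C, but 5.30% and 6.81% of cluster A and 1.64% and 3.75% of cluster D.

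The test of each cluster put numbers on this split. H3K27me3 minus H3K27ac coverage was 90.3 points in cluster A, 45.1 in cluster C and 95.7 in cluster D by MACS2 (2 against 6 libraries, exact permutation tests, p = 0.0408 each after Benjamini-Hochberg adjustment over 8 tests), and 89.7, 39.7 and 91.6 points by SEACR (adjusted p = 0.0408 each, exact). In cluster B it was −0.29 points by MACS2, within the spread of the libraries (exact p = 0.821), and −8.67 points by SEACR (exact adjusted p = 0.0408). With MACS2 peaks held to a q value of 1e-10 or less, cluster B came to −10.9 points (exact adjusted p = 0.0357). At this cutoff CST-9733 replicate 1 kept no H3K27me3 peak in cluster B, where its highest −log10 q was 8.76. The highest H3K27ac peak of cluster B had 71.2 to 266 in the 6 libraries. H3K27me3 peaks were broad and H3K27ac peaks narrow, so the mark and the cutoff cannot be told apart in that value. Peaks over the whole genome covered 6.25% to 7% for H3K27me3 and 0.653% to 1.29% for H3K27ac by MACS2.

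Within a library, each cluster was then set against the mean of the other 3, so that antibody and list length were shared. For H3K27me3 in 7 SEACR lists, the cluster minus the others was 36.1 points in cluster D, 23 in cluster A, −13.6 in cluster C and −45.5 in cluster B (exact sign-flip tests, adjusted p = 0.0156 each). For H3K27ac in the 6 benchmark lists it was 19.6 points in cluster B by SEACR and 12.5 by MACS2, and −10.4 and −5.98 in clusters A and D, which both lay at 0 (exact sign-flip tests, adjusted p = 0.0417 each). With clusters A and D at 0 in every library, their difference is the same number and could not be positive. Their p-values thus add nothing to the coverage of 0. The differences of the clusters in a library sum to 0, so they are not separate results. Cluster C did not differ from the mean of the others in H3K27ac beyond its spread, at 1.22 points by SEACR (exact adjusted p = 0.179) and −0.578 by MACS2 (exact adjusted p = 0.281). That mean joins cluster B with clusters A and D at 0, so it does not show that cluster C was like any of them. In each benchmark H3K27ac list cluster C was covered more than clusters A and D and less than cluster B, by both callers.

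By position, with the clusters pooled, paralogs 9 to 13 carried H3K27me3 more often and H3K27ac less often than paralogs 1 to 4. The marks did not change evenly along the clusters, since paralogs 5 to 8 were under H3K27me3 in 5 of 11 members in both benchmark libraries and in 3 to 5 of 11 over the 7 SEACR libraries, the fewest of the 3 groups in the benchmark. Of paralogs 9 to 13, 13 of 16 members (81.25%) were under H3K27me3 in each of 6 SEACR libraries and 14 (87.5%) in the first library, against 7 of 11 paralogs 1 to 4 (63.6%) and 6 of 11 (54.5%). The mean difference was 19.8 points over the 7 libraries (exact sign-flip p = 0.0156). For H3K27ac, 2 of 16 paralogs 9 to 13 (12.5%, HOXB9 and HOXC9) and 4 of 11 paralogs 1 to 4 (36.4%, HOXB2, HOXB3, HOXB4 and HOXC4) had it in all 6 libraries by both callers, a difference of −23.9 points (exact sign-flip adjusted p = 0.0312). The same genes were counted in every library, so these p-values speak of repeated libraries and not of further genes. The H3K27ac difference had no spread between libraries, so its p was the smallest that sign flips of 6 libraries allow. Cluster B gave HOXB1, HOXB2, HOXB3 and HOXB4 to paralogs 1 to 4 but only HOXB9 and HOXB13 to paralogs 9 to 13. Position and cluster therefore cannot be told apart in the pooled shares. In the benchmark libraries every member of A and D was under H3K27me3, so the members without it lay in clusters B and C. In cluster B HOXB13 had it, while HOXB9 and all paralogs 1 to 4 did not. Cluster C went the other way, with HOXC4, its only member of paralogs 1 to 4, under H3K27me3 and HOXC9 and HOXC10 not. The 6 of 11 of the first library also reflects HOXA4 of cluster A. All 4 paralog 13 members, both paralog 12 and all 3 paralog 11 members were under H3K27me3 alone, while paralog group 9 was split, with HOXA9 and HOXD9 under H3K27me3 and HOXB9 and HOXC9 under H3K27ac.

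The share of bases under H3K27me3 beyond the clusters differed between sides. These shares count any peak and do not show whether a domain crossed the edge of a cluster. In the 200 kb beyond the HOXB13 end of cluster B, 33.2% to 36.1% of bases were under H3K27me3 in the benchmark lists, and in the 200 kb beyond HOXB1 0% were, in every list. Beyond HOXA13 the share was 32.3% to 38.1% and beyond HOXA2 9.76% to 15.7%. Beyond HOXC13 and HOXC4 it was 34.9% to 44.1%, the most even of the clusters. Beyond HOXD13 it was 17.2% to 20.8% and beyond HOXD1 3.90% to 9.62%.

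How many members an H3K27ac list held depended on the library set. TSA libraries held 5 (ab177178), 6 (ab4729), 4 (Diagenode 1:100) and 6 (Diagenode 1:50) members by SEACR, against 8, 9, 7 and 8 in the first libraries without TSA, and 1, 2, 4 and 4 by MACS2, against 6, 8, 5 and 9. All 4 pairs were lower with TSA by both callers. SEACR H3K27ac covered 2.17%, 3.12%, 2.61% and 4.89% of cluster B with TSA, against 10.6%, 20.4%, 6.19% and 13.2% without. The TSA lists were made from downsampled reads and the others at full depth, so TSA and depth cannot be told apart. In the same order of antibodies the TSA lists held 1876, 9940, 7972 and 5148 MACS2 peaks, against 10887, 25849, 7677 and 21220 without TSA, and 7125, 21904, 4479 and 6352 SEACR peaks, against 16661, 13427, 7882 and 11883. The TSA list thus held more peaks for Diagenode 1:100 by MACS2 and for ab4729 by SEACR, but those peaks covered fewer bases. They covered 3.22 Mb against 3.84 Mb without TSA for Diagenode 1:100, and 23.7 Mb against 43.4 Mb for ab4729. The part of peak number, covered bases and TSA in the member counts was not tested. With 4 pairs no exact test could reach p = 0.05, and none was run. Cluster A stayed at 0 members with TSA by both callers.

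**Figure D5:**
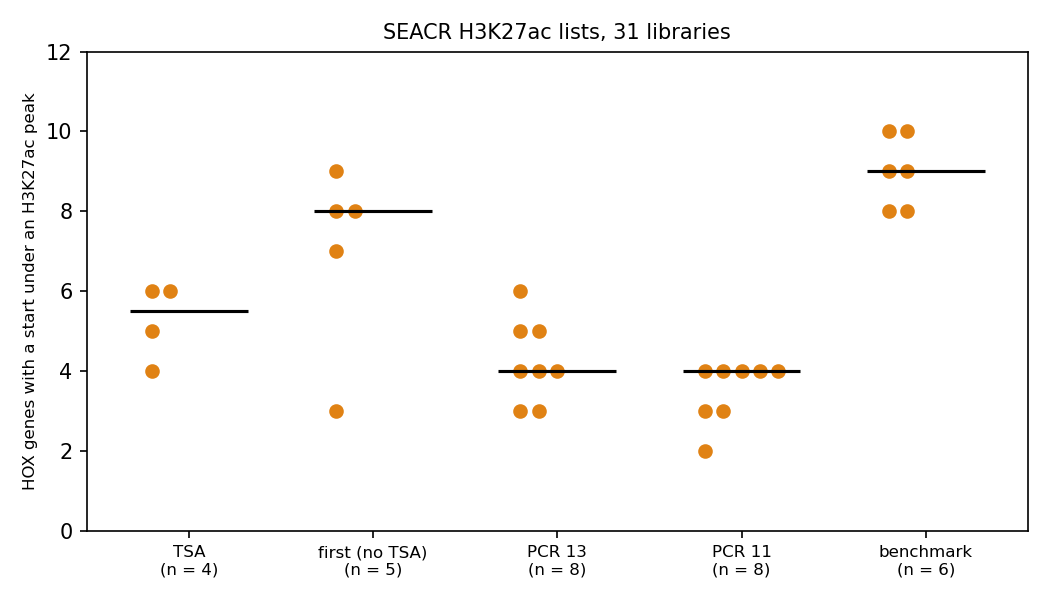
Number of HOX genes with a start under an H3K27ac SEACR peak in each of 31 libraries, by set, with 1 point per library and lines at the medians. The 6 benchmark lists held 8 to 10 genes, the TSA lists 4 to 6, and the PCR lists 3 to 6 with 13 cycles and 2 to 4 with 11 cycles.

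In the PCR set, 13 cycles gave 4.25 ± 1.04 members and 11 cycles 3.5 ± 0.756 (SD, n = 8 libraries each), a paired difference of 0.75 (exact sign-flip p = 0.109). Column extraction gave 4.125 ± 0.991 members and SDS 3.625 ± 0.916 (n = 8 each), a difference of 0.5 (exact sign-flip p = 0.5). Neither difference exceeded the spread between the pairs. These downsampled lists held 3797 to 10821 peaks, and HOXB2 was absent from only 1 of them (Active Motif, 11 cycles, column). The H3K27me3 libraries of the PCR set covered less of each cluster than the benchmark ones: 46.0%, 44.1%, 28.3% and 42.8% of cluster A (13 cycles SDS, 13 column, 11 SDS, 11 column) and 48.7% to 58.4% of cluster D, yet still held 23 to 25 members at their starts.

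Other genes tied to HOX were counted by the same rule, under which 26.3% (MACS2) and 25.9% (SEACR) of all protein-coding genes had H3K27me3 and 56.3% and 50.9% H3K27ac. Of the 9 TALE cofactors, homeodomain partners of HOX proteins on DNA, 6 (MACS2) and 5 (SEACR) were under H3K27me3, among them PBX3 and MEIS3. Under H3K27ac were 3, namely MEIS2, PBX2 and PKNOX1, and PKNOX1 was counted for both marks by both callers. Of 10 upstream regulators, CDX1 and CDX2 were under H3K27me3 alone, and 6 were under H3K27ac, among them KMT2A, the methyltransferase that keeps HOX genes active, and DOT1L, counts close to the shares of all genes. Among 19 non-coding genes of the clusters 12 were under H3K27me3, among them HOTAIR and HOTTIP, and 5 under H3K27ac: HOXB-AS1, HOXB-AS3, HOXC-AS1, HOXC-AS2 and MIR196A1. Of 13 genes beside the clusters 8 were under H3K27me3, among them EVX1 and EVX2, and 6 (MACS2) and 4 (SEACR) under H3K27ac, among them HIBADH and LNPK. Of 8 ParaHox and related homeobox genes 7 were under H3K27me3, among them GSX1, GSX2 and PDX1, and MNX1 was under H3K27ac in 6 of 6 MACS2 and 0 of 6 SEACR lists.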

How the data were processed

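K562 CUT&Tag libraries were analysed from the peak lists that the authors deposited. Per the study's methods and processing notes, reads were trimmed (Trim Galore 0.6.6), aligned to hg19 (Bowtie2 2.2.9), marked for duplicates (Picard 2.6.0) and handled with SAMtools 1.3.1 and bedtools 2.25.0, and the TSA and PCR sets were downsampled. The deposited MACS2 lists give each peak a score, a fold ratio over background and −log10 p and q values. The deposited SEACR lists give the total and the maximum signal of each peak, with a top share of 0.1 for H3K27me3 and 0.01 for H3K27ac. The SEACR mode is described in 2 ways in the sources used here.

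Peaks were not filtered. A gene was called for a mark when a peak overlapped, by at least 1 bp, the 1.5 kb either side of any transcript start (GENCODE v44 lifted to GRCh37), and coverage was the percent of a cluster's span under peaks. All 1331138 peaks but 1 lay within the GRCh37 chromosomes. Libraries were the replicates. Exact permutation and exact sign-flip tests were two-sided, with Benjamini-Hochberg adjustment, and were tested on simulated data (Python 3.11.15, numpy 2.4.6, scipy 1.17.1, matplotlib 3.10.9, samtools 1.23.1). The lists hold no depth and the study's fragment totals were not used here, so list length is given instead. Values per library were given for the members with most and fewest H3K27ac lists in each cluster and for members with both marks, and other lists were counted with up to 4 examples. Members were set by gene name, and the choice of the HOX genes and of the lists was made with earlier results of these data known. HOXD-AS1 was read as HAGLR, and MIR10A was placed by its mature sequence alone. Alternatives were another window, the outermost start, a larger overlap, stricter peaks, equal list lengths, each library left out and a replicate block. A gene of the clusters and some genes of the other lists are not reported here.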

Additional observations from a re-analysis of the deposited data

Results flagged for a closer look

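Of 45 groups of libraries checked for 1 far from the rest, 3 held one, where chance gives about 1 in 20, and the groups in which every library lay at 0 could not give one. The TSA library with ab4729 had 1.87% of cluster D under H3K27ac by SEACR, at HOXD12, where the other 3 TSA libraries had 0%. Its SEACR list was the longest of the H3K27ac lists, at 21904 peaks. The library with Active Motif 39133, 11 cycles and column extraction had 1.01% of cluster D under H3K27ac by SEACR, at HOXD10, where the other 7 libraries with 11 cycles had 0%. The library with ab177178, 13 cycles and column extraction had 2.52% of cluster C under H3K27ac by SEACR and held 6 members, the most of the 16 PCR libraries. The part of antibody, list length and treatment in these values was not tested.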

How the results depend on the processing

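Of 273 alternative values for 31 results, 155 were counted as kept and no called value turned round. A tested value was kept when it stayed on its side of the threshold, and a count without a test when it stayed within a factor of 1.5. The uncalled cluster B difference by MACS2 (−0.29 points) turned to 0.305 points without Diagenode replicate 2 and 0.301 without CST-9733 replicate 2. These values stayed uncalled and are among the 155. Of 93 changes of window, start, overlap, peak threshold or list length, 92 were kept by this rule. The exception was cluster B by MACS2, where H3K27me3 minus H3K27ac came to −10.9 points (exact adjusted p = 0.0357) with peaks of q at most 1e-10. That threshold removed every H3K27me3 peak of CST-9733 replicate 1 in cluster B. The 117 lost calls all came from a replicate block or a left-out library and kept their direction. In 115 of them p was the smallest that the remaining arrangements allow, and the exceptions were cluster B by SEACR without ab177178 replicate 1 or Diagenode replicate 2 (exact adjusted p = 0.109). The labels do not say what a replicate number shares between antibodies. With the number as a replicate block (smallest exact p 0.0625, adjusted 0.0714), the differences were those reported, 16.3 (MACS2) and 16 (SEACR) members, 90.3, 45.1 and 95.7 points in clusters A, C and D by MACS2, and 89.7, −8.67, 39.7 and 91.6 points in A, B, C and D by SEACR.

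With each library left out in turn, H3K27me3 minus H3K27ac was 16.2 to 16.4 members by MACS2 and 15.8 to 16.2 by SEACR. Its coverage was 87.0 to 93.6 (A), −1.15 to 0.305 (B), 44.6 to 45.6 (C) and 94.4 to 97.0 (D) points by MACS2 and 89.2 to 90.2, −9.50 to −7.75, 38.5 to 41.0 and 88.5 to 94.7 by SEACR. H3K27ac of each cluster minus the others was −6.44 to −5.78 (A and D), 12 to 13.2 (B) and −1 to −0.362 (C) by MACS2 and −10.9 to −10.1, 18.6 to 20.3 and 0.9 to 1.75 by SEACR. H3K27ac of paralogs 9 to 13 minus 1 to 4 stayed at −23.9 points. The lists hold no depth, so a member without a peak was not detected and may still carry a mark below the callers' thresholds.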
